A study of Mus musculus with 6 samples.

Results

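The genes described here are 37 mouse genes of DNA repair and of the checkpoint that answers DNA damage, listed by symbol and grouped by pathway. The list follows what the genes are known to do, but it was chosen with earlier results of these arrays known. A gene was read where a probe on the array carried a transcript accession of that gene, and where several probes did, the one of highest mean Cy3 signal over the 6 arrays was used. By that rule 27 of the 37 genes had a probe, of 12323 named genes in all. They comprise 10 genes of homologous recombination (Brca1, Brca2, Bard1, Rad54l, Rad50, Mre11a, Nbn, Blm, Wrn and Xrcc2), 3 of the checkpoint (Chek1, Chek2 and Atm) and 2 of mismatch repair (Pms2 and Exo1). A further 5 belong to base excision repair (Xrcc1, Ogg1, Apex1, Parp1 and Lig3), 3 to nucleotide excision repair (Ercc1, Ercc2 and Xpa), 2 to end joining (Xrcc5 and Xrcc6) and 2 to the Fanconi anaemia pathway (Fanca and Fancc). No probe was paired with the other 10, Rad51ap1, Atr, Msh3, Msh6, Xpc, Xrcc4, Lig4, Fancd2, Fancg and Fanci, so they were not analysed here.

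These pathways divide the work of keeping DNA intact. Homologous recombination mends double-strand breaks by copying the sister chromatid and works in cells that have replicated their DNA, while end joining ligates broken ends directly at any stage of the cell cycle. Mismatch repair removes replication errors, base excision repair replaces single damaged bases, nucleotide excision repair cuts out bulky lesions and the Fanconi pathway unhooks crosslinks between the strands. In the intestine, the dividing cells of the crypt replace the lining every few days, and inherited defects of mismatch repair are a well known cause of intestinal cancer.

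Crypts are pits between the villi of the gut where its progenitor cells divide, and here they were cut by laser capture from mid small intestine. The 6 donors were C57BL/6 mice aged 120 days, each read on an array of its own. The 3 LOI(+) mice had received through the mother an allele lacking H19 together with upstream sequence that includes the differentially methylated region. By the series' design this allele activates the maternal Igf2 copy, a loss of imprinting, which in the 3 wild-type LOI(-) mice from the same kind of cross (female H19+/- with male wild type) is silent. The deletion is present in every cell of the LOI(+) mice and removes H19 itself, so loss of H19 and activation of Igf2 cannot be told apart in this comparison. No probe was paired with H19, so the deleted gene did not check the labels. Of the mice, 4 are labelled male, and LOI(-) 3 and LOI(+) 2 carry no sex label.

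Crypt RNA was labelled with Cy3 after linear amplification and hybridised with Universal Mouse Reference RNA in Cy5, which pools RNA of several cultured lines. A level is given as the log2 ratio of Cy3 over Cy5, in which 0 means equal signal and -1 means 2-fold less in crypts. The dyes were not swapped, so each ratio also holds the dye effect of its probe, which both groups share. The median Cy3 signal of a feature was 552 to 603 on the 6 arrays over a local background of 387 to 391, and pairs of arrays correlated over genes at 0.932 to 0.975. The mean r with other arrays was lowest for LOI(+) 2, at 0.948, which also held the most outlier spots, 146. Markers of gut epithelium were high. The 5 Paneth cell markers had a median log2 ratio of 5.26. Of the 13 markers listed for crypt epithelium, 10 lay above the reference on every array, with a median of 2.99. Many of these are shared with villus cells, so they do not set crypt apart from villus. The villus enterocyte markers were high too, with a median of 3.31, and 6 of 7 lay above the reference on every array. Of the 9 fibroblast markers, 8 lay below it on every array. The mean log2 ratio of the 8 T and NK cell markers was -0.017 to 0.10 in LOI(-) and -0.066 to 0.017 in LOI(+) mice, near the reference, and LOI(-) 1 stood lowest for the villus enterocyte markers, at 2.80 against 3.39 to 3.54 in the other LOI(-) mice.

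Against the reference, most repair genes gave less signal in crypts. The mean log2 ratio over the 6 arrays was below 0 for 21 of the 27 genes and its median over the genes was -0.31, against a median of -0.020 over all named genes. On every array 17 genes lay below the reference, 2 lay above it (Atm and Ercc2) and 8 were mixed. Among all named genes, 36% lay below on every array and 30.4% above. None of the 27 was past 2-fold in either direction on every array, a position held by 6.01% of named genes below and 4.8% above. The pooled reference comes from cultured, dividing cells, and what part that has in the lower ratios was not tested. Since each ratio is set against the same probe's reference signal, it gives no order of transcript amounts among the genes. The level also depends on the probe for some of the 9 genes that had another one. Exo1 is counted below, at a mean of -0.29, but its dimmer probe lay above the reference on every array, between 0.078 and 0.37. Brca2 averaged -0.72 on the probe used and -0.076 on the other, and Brca1 -0.058 and -0.48.

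**Figure D1:**
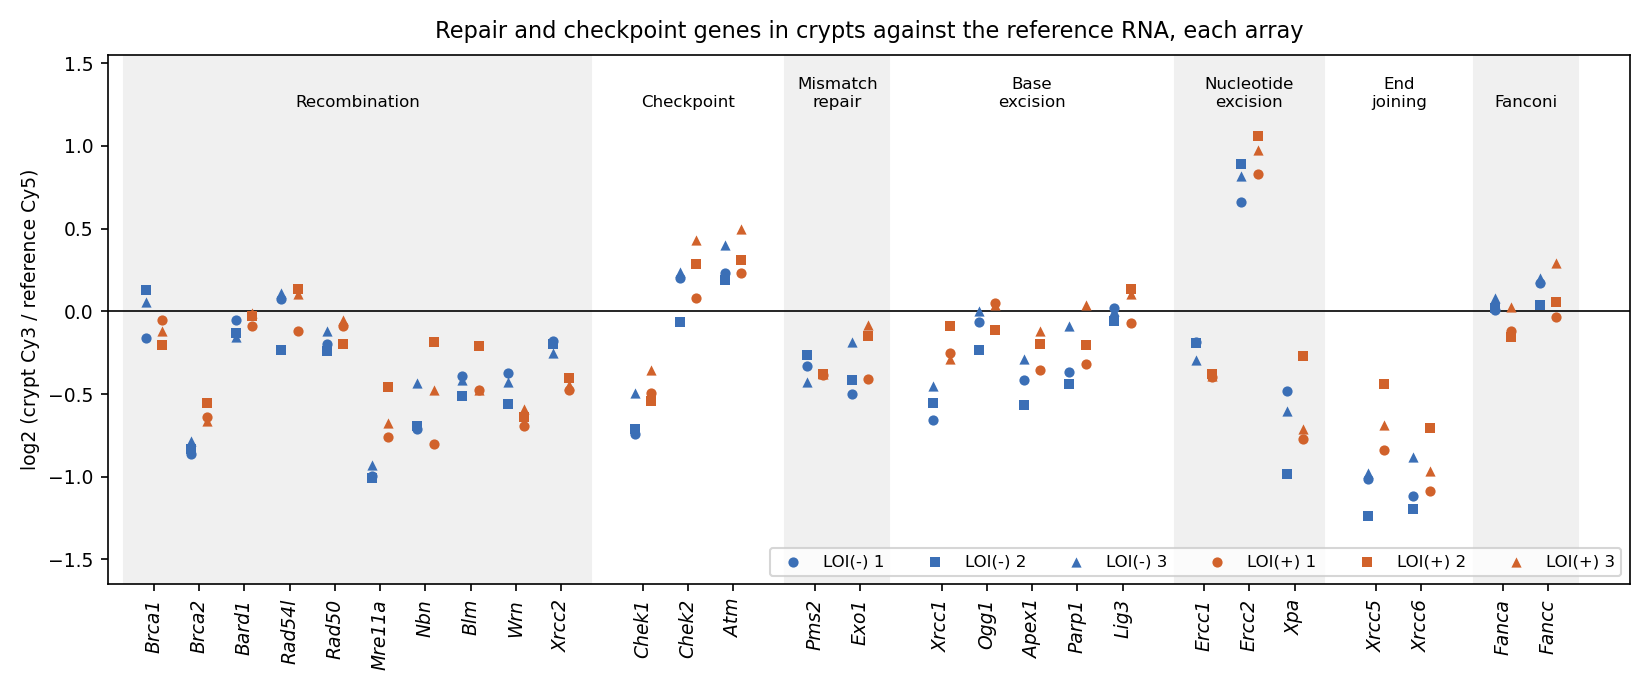
Log2 ratio of crypt Cy3 over reference Cy5 for each of the 27 repair and checkpoint genes, grouped by pathway along the horizontal axis, with 1 point per array, LOI(-) mice in blue and LOI(+) mice in orange. The end-joining genes Xrcc5 and Xrcc6 lie lowest, with means of -0.87 and -0.99, and Ercc2 lies highest, with a mean of 0.87.

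Comparing LOI(+) with LOI(-) mice asks whether the repair genes of crypt cells differ when the imprint is lost. None of the 27 genes passed limma's test after Benjamini-Hochberg adjustment over the 37948 genes and unnamed probes tested, of which 0% passed, and the smallest adjusted p of any was 0.801. At an unadjusted p under 0.05, 7 of the 27 stood apart (25.9%), against a background of 6.16% of all genes tested and 7.57% of named genes. Of these 7, 4 were higher in LOI(+) mice (Brca2, Mre11a, Xrcc1 and Xrcc5), where 3.92% of all genes were, and 3 were lower (Wrn, Xrcc2 and Ercc1), where 2.23% were. The same 7 genes were the ones whose arrays did not overlap between the groups, against 11.4% of all genes with a value on every array, 6.39% higher and 5.01% lower. The list was chosen with results of these arrays known, so these shares describe it and test nothing.

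Most of the differences were small and positive. The group mean was higher in LOI(+) mice for 20 of the 27 genes (74.1%, against 51.2% of all genes tested) and lower for 7. The median difference, LOI(+) minus LOI(-), was 0.088 on the log2 scale, against 0.0026 over all genes tested, and single genes ran from -0.23 to 0.42. The median standard error (SE) of a member's difference was 0.087, so the number of arrays limits what can be seen at this size. The median was 0.045 without LOI(-) 2, 0.14 without LOI(-) 3 and 0.14 without LOI(+) 1, and between 17 and 21 of the genes were higher when each array was left out in turn. With ratios centred on the median in place of loess, 5 genes were higher at an unadjusted p under 0.05 and 0 lower. No share of all genes is given for that setting. The count shows only that the calls on the lower side depend on the normalization.

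**Figure D2:**
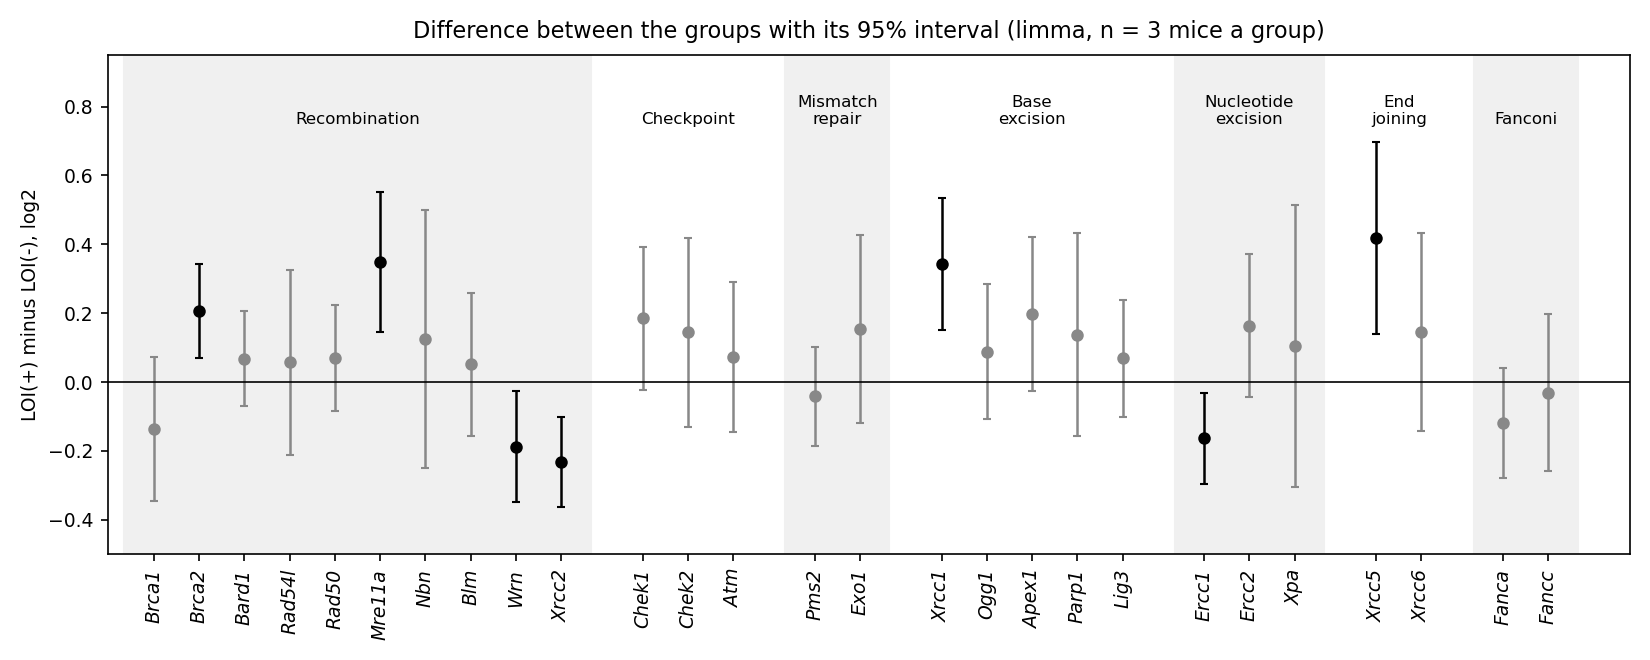
Difference of the log2 ratio, LOI(+) minus LOI(-), for each gene (points) with the 95% confidence interval from limma (bars), n = 3 mice in each group. Black marks the 7 genes with an unadjusted p under 0.05 and grey the other 20, and no gene passed after adjustment.

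Among the 10 recombination genes, 7 had a higher mean in LOI(+) mice, and 5 of the 10 did without LOI(+) 2. The trio of Mre11a, Rad50 and Nbn forms the complex that first binds and trims broken ends. Mre11a, its nuclease, had log2 ratios of -0.996, -1.01 and -0.93 in LOI(-) mice 1 to 3 and -0.76, -0.46 and -0.67 in LOI(+) mice 1 to 3. All 3 LOI(+) arrays lay above all 3 LOI(-) arrays, and LOI(+) 2 lay highest. The difference was 0.35 ± 0.086 (SE), with a 95% interval from 0.15 to 0.55 and a limma p of 0.00473 (adjusted p = 0.801). For its 2 partners the 95% interval of the difference held 0. Rad50, the ATPase of the complex, averaged -0.19 ± 0.061 (SD, n = 3) in LOI(-) and -0.12 ± 0.076 (SD, n = 3) in LOI(+) mice, a difference of 0.070 ± 0.065. Its Cy3 signal of 452 to 469 was barely over the negative control features, whose 95th percentile was 439 to 449, which limits what its probe can show. Nbn, which brings Atm to the break, averaged -0.61 ± 0.16 and -0.49 ± 0.31, a difference of 0.13 ± 0.16, with the LOI(+) arrays spread from -0.80 to -0.19.

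Brca1 and Bard1 form a ubiquitin ligase that steers a break towards recombination, and Brca2 acts after them on the trimmed end. Brca2 had log2 ratios of -0.87, -0.83 and -0.78 in LOI(-) mice 1 to 3 and -0.64, -0.56 and -0.66 in LOI(+) mice 1 to 3. The groups did not overlap and both were tight, with SDs of 0.041 and 0.056 (n = 3 each). Its Cy3 signal was only 521 to 572, at lowest 1.16 times the 95th percentile of the negative controls. A signal so near the negative controls limits what these small SDs can show. The difference was 0.21 ± 0.058 with a 95% interval from 0.070 to 0.34 and a limma p of 0.00902 (adjusted p = 0.801). Bard1 averaged -0.11 ± 0.055 in LOI(-) and -0.043 ± 0.042 in LOI(+) mice, a difference of 0.068 ± 0.058. Rad54l, a motor protein of recombination that moves along DNA, averaged -0.017 ± 0.19 and 0.041 ± 0.14, a difference of 0.057 ± 0.11. Brca1 averaged 0.010 ± 0.15 and -0.13 ± 0.075, a difference of -0.14 ± 0.088 that its other probe did not share, as described with the probe pairs.

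Among the remaining recombination genes, 2 stood on the lower side. Wrn, a RecQ helicase and the gene of Werner syndrome, had log2 ratios of -0.38, -0.56 and -0.43 in LOI(-) and -0.69, -0.64 and -0.59 in LOI(+) mice. All LOI(+) arrays lay below the LOI(-) arrays, by a narrow gap to LOI(-) 2. The Cy3 signal of Wrn was only 511 to 580, at lowest 1.16 times the 95th percentile of the negative controls. The difference was -0.19 ± 0.068, with a limma p of 0.0281 (adjusted p = 0.804), and the unadjusted p passed 0.05 in 12 of 19 alternative settings. Xrcc2, a factor of homologous recombination, had log2 ratios of -0.18, -0.19 and -0.25 and -0.48, -0.40 and -0.45, again without overlap. Its difference was -0.23 ± 0.055 with a limma p of 0.00394 (adjusted p = 0.801). The Cy3 signal behind it was only 437 to 471 and passed the negative controls on 4 of 6 arrays. With the background left in, the difference was -0.033. Blm, the RecQ helicase of Bloom syndrome, averaged -0.44 ± 0.065 and -0.39 ± 0.15, a difference of 0.051 ± 0.087.

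The 3 checkpoint kinases had a higher mean in LOI(+) mice without passing the test, except that Atm stood at -0.017 with the Cy3 channel alone and -0.0039 without LOI(+) 3. Atm signals double-strand breaks, Chek2 relays its signal, and Chek1 halts the cycle when replication stalls. Chek1 had log2 ratios of -0.74, -0.71 and -0.49 in LOI(-) and -0.50, -0.54 and -0.35 in LOI(+) mice. LOI(-) 3 lay inside the range of the LOI(+) arrays, and the difference was 0.19 ± 0.088, with a 95% interval from -0.023 to 0.39 and a limma p of 0.0738 (adjusted p = 0.82). Chek2 averaged 0.12 ± 0.16 and 0.27 ± 0.18, a difference of 0.14 ± 0.12. Atm lay above the reference on every array, between 0.19 and 0.50, and its groups differed by 0.072 ± 0.092.

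Of the mismatch repair genes, Pms2, an endonuclease that nicks the faulty strand, averaged -0.34 ± 0.080 in LOI(-) and -0.38 ± 0.0036 in LOI(+) mice. Its 3 LOI(+) arrays were nearly alike, and the difference was -0.042 ± 0.060. Exo1, the exonuclease that removes the nicked strand, averaged -0.37 ± 0.16 and -0.21 ± 0.17, a difference of 0.15 ± 0.12 with a 95% interval from -0.12 to 0.43.

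The 5 base excision genes all had a higher mean in LOI(+) mice, with a median difference of 0.14. They did so in the main fit and each of its 19 alternatives, though some alternatives leave the members' differences unchanged. The size of that median rested on single arrays, at 0.067 without LOI(-) 2 and 0.064 without LOI(+) 3, but 0.24 without LOI(-) 3 and 0.22 without LOI(+) 1. Xrcc1, the scaffold that gathers the enzymes of single-strand break repair, had log2 ratios of -0.66, -0.55 and -0.45 in LOI(-) and -0.25, -0.088 and -0.29 in LOI(+) mice. The lowest LOI(+) array, LOI(+) 3, lay above the highest LOI(-) array, LOI(-) 3. The difference was 0.34 ± 0.081, with a 95% interval from 0.15 to 0.54 and a limma p of 0.00401 (adjusted p = 0.801). Apex1, the endonuclease that cuts at sites without a base, was read well over the negative controls, at a Cy3 signal of 1747 to 2776. It had log2 ratios of -0.41, -0.56 and -0.29 and -0.35, -0.20 and -0.12, with overlap between LOI(+) 1 and the LOI(-) arrays, and a difference of 0.20 ± 0.094 with a limma p of 0.0747 (adjusted p = 0.82). Parp1, which senses breaks and marks them with ADP-ribose chains, differed by 0.14 ± 0.12. For Ogg1, the glycosylase that removes oxidised guanine, the difference was 0.088 ± 0.083. Lig3, the ligase that works with Xrcc1, averaged -0.012 ± 0.042 and 0.057 ± 0.11, a difference of 0.069 ± 0.071.

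The nucleotide excision genes divided. Ercc1, the partner of the nuclease that cuts on one side of the lesion, had log2 ratios of -0.19, -0.19 and -0.29 in LOI(-) and -0.40, -0.38 and -0.39 in LOI(+) mice. The LOI(+) arrays had an SD of 0.011 (n = 3) and lay below every LOI(-) array. The difference was -0.16 ± 0.056, with a limma p of 0.0227 (adjusted p = 0.804), and as for Wrn the unadjusted p passed 0.05 in 12 of 19 alternative settings. Ercc2, a helicase of the transcription factor TFIIH that opens the strands at the lesion, had log2 ratios of 0.66, 0.89 and 0.82 and 0.83, 1.06 and 0.97, above the reference throughout. The groups overlapped and differed by 0.16 ± 0.087 with a limma p of 0.103 (adjusted p = 0.82). Xpa, which checks the lesion, had a wide spread within each group, -0.69 ± 0.26 and -0.59 ± 0.28 (SD, n = 3 each), and a difference of 0.10 ± 0.17.

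Xrcc5 and Xrcc6 encode the subunits of Ku, the ring that holds broken ends for joining. Both had low ratios against the reference on every array. Xrcc5 had log2 ratios of -1.01, -1.24 and -0.98 in LOI(-) and -0.84, -0.44 and -0.69 in LOI(+) mice. The groups did not overlap, and LOI(+) 2 stood highest. The difference of 0.42 ± 0.12 was the largest of the 27 in this fit, with a 95% interval from 0.14 to 0.70 and a limma p of 0.00932 (adjusted p = 0.801). Xrcc6 had ratios of -1.12, -1.20 and -0.88 and -1.09, -0.70 and -0.97. Its groups overlapped and its difference was 0.15 ± 0.12, with a 95% interval from -0.14 to 0.43. The difference between these 2 differences was not tested.

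The Fanconi genes read here, Fanca and Fancc, encode members of the core complex that tags its target with ubiquitin. They lay close to the reference and both means were lower in LOI(+) mice, except that Fancc stood at 0.0016 with array weights, 0.0015 without LOI(-) 3 and 0.040 without LOI(+) 1. Fanca averaged 0.036 ± 0.041 and -0.083 ± 0.096, a difference of -0.12 ± 0.067 with a limma p of 0.121 (adjusted p = 0.825). Fancc averaged 0.14 ± 0.087 and 0.11 ± 0.17, a difference of -0.030 ± 0.097.

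For 9 of the 27 genes a dimmer probe read another stretch of the same gene's transcript, which gives a measure that the choice of probe did not use. The dimmer probes were tested in a limma fit over all probes. The differences of both probes had the same sign for 8 of the 9 genes, but both had an unadjusted p under 0.05 for 1 gene only, Xrcc5. Its dimmer probe had log2 ratios of -0.89, -0.96 and -0.83 in LOI(-) and -0.74, -0.68 and -0.77 in LOI(+) mice, without overlap, and a difference of 0.16 ± 0.061 with a limma p of 0.0322. For Xrcc1 the dimmer probe, of Cy3 signal near the negative controls, gave 0.17 ± 0.076 with a limma p of 0.0674. For Ercc1 it gave -0.10 ± 0.092 with overlap between the groups. The dimmer probes of Exo1, Nbn and Xpa gave 0.0035 ± 0.086, 0.0063 ± 0.060 and 0.0061 ± 0.086, and that of Apex1 gave 0.15 ± 0.11. For Exo1, Nbn and Xpa, as for Brca2 below, the dimmer difference was far smaller than its SE, so its sign says little. The mean Cy3 signals of the dimmer Nbn and Xpa probes, 464 and 453, were also near the negative controls.

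Brca2 and Brca1 showed how far a pair can part. The dimmer Brca2 probe had log2 ratios of -0.25, -0.044 and 0.033 in LOI(-) and 0.11, -0.18 and -0.12 in LOI(+) mice. The groups overlap, with LOI(-) 1 lowest and LOI(+) 1 highest of the 6 arrays, and the difference was 0.026 ± 0.10, so the separation seen with the brighter probe was not seen with this one. The brighter Brca1 probe had ratios of -0.16, 0.13 and 0.059 and -0.054, -0.20 and -0.12, which overlap, with a limma p of 0.17 (adjusted p = 0.832). The dimmer Brca1 probe had ratios of -0.78, -0.61 and -0.51 and -0.28, -0.32 and -0.40, without overlap, and a difference of 0.30 ± 0.083 with a limma p of 0.0085. The direction for Brca1 therefore depends on the probe, and the mean of both was 0.082.

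The array's probes are 60 bases long, and a signal stands for that stretch of the transcript alone. The sequences of 7 probes from these pairs are shown 5′ to 3′ so that their values can be tied to what they read. The dimmer Brca1 probe, which has no reading frame free of a stop, and the brighter probes of Xrcc1 and Xrcc5 are not shown, since they may lie in untranslated sequence. No letters are in capitals, since the whole probe hybridises.
Brca1 brighter probe: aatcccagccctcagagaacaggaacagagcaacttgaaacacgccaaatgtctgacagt
Brca2 brighter probe: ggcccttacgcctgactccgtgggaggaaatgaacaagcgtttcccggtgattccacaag
Brca2 dimmer probe: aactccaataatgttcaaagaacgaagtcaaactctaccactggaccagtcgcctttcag
Ercc1 brighter probe: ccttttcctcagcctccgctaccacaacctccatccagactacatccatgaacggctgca
Ercc1 dimmer probe: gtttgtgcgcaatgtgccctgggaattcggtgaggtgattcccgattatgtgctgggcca
Xrcc1 dimmer probe: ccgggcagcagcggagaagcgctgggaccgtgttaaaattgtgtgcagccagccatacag
Xrcc5 dimmer probe: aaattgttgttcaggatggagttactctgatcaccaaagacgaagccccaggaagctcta
The Brca2 probes held 56.7% (brighter) and 43.3% (dimmer) G and C, those of Ercc1 55.0% each, and the 27 probes used ran from 28.3% to 56.7%.

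**Figure D3:**
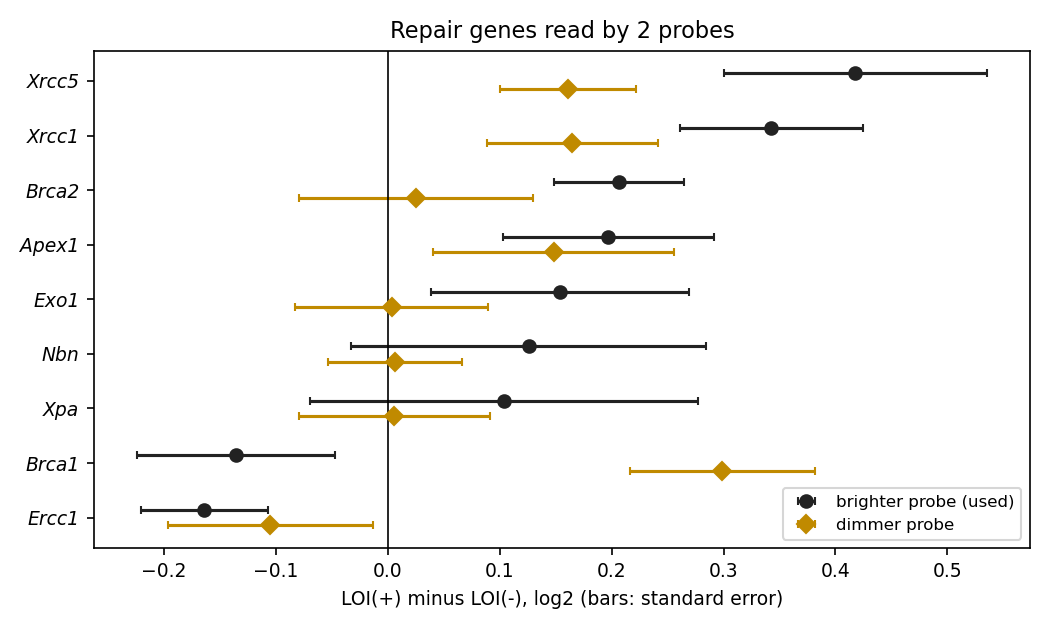
Difference of the log2 ratio, LOI(+) minus LOI(-), with its SE for the 9 genes read by 2 probes, the brighter probe as a black circle and the dimmer as a gold diamond. The points of a gene lie on the same side of 0 for every gene but Brca1, where they stand at -0.14 and 0.30. The dimmer points of Exo1, Nbn, Xpa and Brca2 lie within their SE of 0.

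The promoters of the genes were searched for the core of the binding site of E2F, the factor family that governs genes of DNA synthesis. The letters TTTCCCGC, TTTGGCGC, TTTCGCGC and TTTGCCGC were looked for on both strands from 250 bases before to 50 after each gene's start, in RefSeq sequence of GRCm38.p6. A match was found for 7 of the 30 listed genes with a promoter entry (23.3%) and for 4 of the 22 that also had a probe (18.2%), against 704 of 27025 genes in all (2.60%). Among DNA replication genes 13 of 36 had one (36.1%), among other repair genes 10 of 91 (11.0%) and among mitosis genes 1 of 19 (5.26%). For Msh3, 2 matches overlap and were counted as 1 gene. The 4 genes with both a match and a probe are shown with 60 bases of promoter on the gene's strand, the match in capitals.
Bard1, chr1:71103148-71103207, minus strand: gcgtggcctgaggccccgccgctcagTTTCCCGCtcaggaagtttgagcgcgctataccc
Chek2, chr5:110839805-110839864, plus strand: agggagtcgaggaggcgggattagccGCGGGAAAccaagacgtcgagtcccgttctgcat
Brca2, chr5:150522427-150522486, plus strand: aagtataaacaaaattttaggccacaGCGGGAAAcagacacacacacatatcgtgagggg
Xrcc6, chr15:82016297-82016356, plus strand: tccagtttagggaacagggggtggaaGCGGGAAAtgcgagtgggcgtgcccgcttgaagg
The match begins 209 bases before the start of Bard1, 152 before that of Chek2, 168 before that of Brca2 and 46 before that of Xrcc6. The differences between the groups of these 4 genes were 0.068, 0.14, 0.21 and 0.15 in that order. For Brca2 the other probe gave 0.026 ± 0.10. Over all 27 genes, 20 were higher in LOI(+) mice, with a median difference of 0.088. Whether a match goes with a difference was not tested. A match is a run of letters and no measurement of binding.

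The mean of the repair genes varied from array to array within each group. Their mean log2 ratio, each gene centred on its 6 arrays, was -0.048, -0.11 and 0.031 in LOI(-) mice 1 to 3 and -0.053, 0.097 and 0.080 in LOI(+) mice 1 to 3. LOI(+) 1 thus stood with the LOI(-) arrays, LOI(-) 3 stood above it, and the groups overlapped. Of the 27 genes, 11 were highest on LOI(+) 2 (40.7%, against 22.0% of all genes) and 9 on LOI(+) 3 (33.3%, against 13.8%). LOI(-) 2 held the lowest value for 12 (44.4%, against 22.0%).

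LOI(-) 2 was also lowest, and LOI(+) 2 and LOI(+) 3 highest, for genes of dividing cells read beside them. The 37 DNA replication genes had centred means of -0.19, -0.22 and 0.022 in LOI(-) mice and 0.034, 0.19 and 0.17 in LOI(+) mice, a mean difference of 0.26 against 0.083 for the repair genes. Of these 37, 34 had a higher mean in LOI(+) mice and 17 were higher at an unadjusted p under 0.05, with 0 lower and 0 past adjustment. Of the 15 mitosis genes, all were higher in mean (12 without LOI(-) 2), with centred means from -0.29 on LOI(-) 2 to 0.23 on LOI(+) 3. Most markers of 9 cell types stood lower in mean in LOI(+) mice. They did so for 6 of 8 of smooth muscle, 7 of 9 of fibroblasts, 5 of 6 of endothelium, 4 of 6 of B and plasma cells and 4 of 7 of myeloid cells (3 of 7 without LOI(-) 1). The same held for 6 of 8 of T and NK cells, where median centring gave 2 of 8 lower. It also held for 5 of 6 of goblet cells, 9 of 13 of crypt epithelium and 3 of 5 of Paneth cells, though scale normalization between arrays gave 1 of 6, 4 of 13 and 1 of 5 lower. For Paneth cells, 2 of 5 were lower with median centring, without LOI(-) 2 or without LOI(+) 3. Of the villus enterocyte markers, 6 of 7 stood higher, with a median difference of 0.19, which was 0.048 without LOI(-) 1. The mean log2 ratio of the goblet markers was 4.56 to 4.68 in LOI(-) and 4.44 to 4.59 in LOI(+) mice, that of 7 smooth muscle markers was -0.48 to -0.25 and -0.62 to -0.48, and that of the fibroblast markers was -1.96 to -1.79 and -2.08 to -1.87. The part of these in the differences of the repair genes was not tested. In dissected tissue, fewer cells of a kind and less RNA in each cell cannot be told apart.

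**Figure D4:**
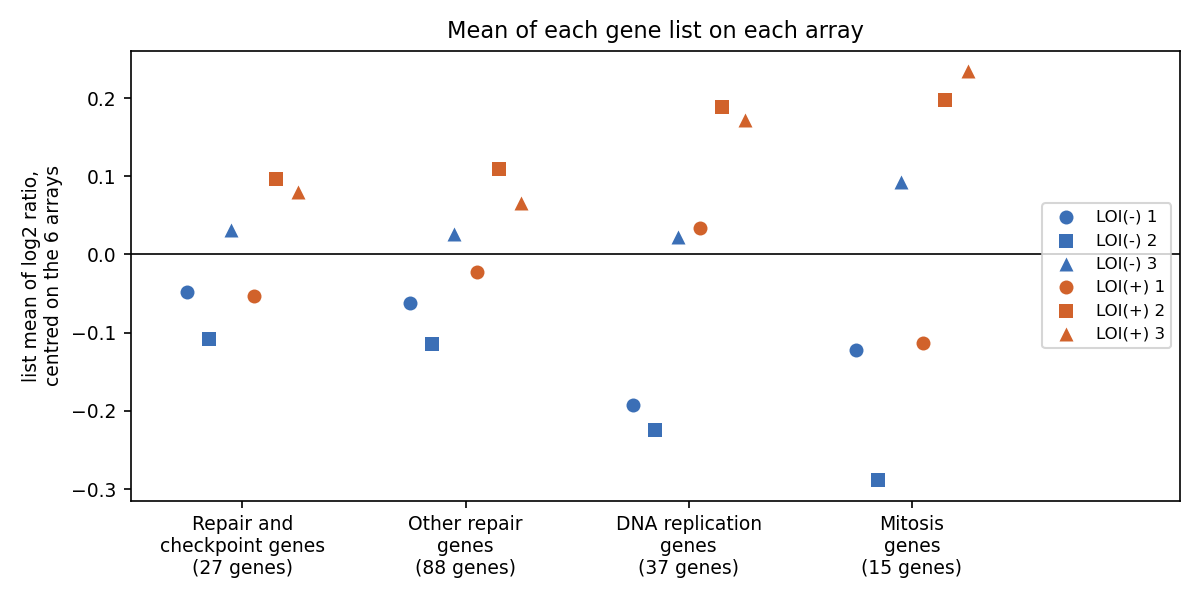
Mean over the genes of a list of the log2 ratio, each gene centred on the 6 arrays, for the 27 repair and checkpoint genes, 88 other repair genes with a value on every array, 37 DNA replication genes and 15 mitosis genes, with 1 point per array. LOI(-) 2 is lowest in all 4 lists, and the groups overlap in each list but DNA replication.

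A list of 117 other repair genes, of the same pathways and of lesion bypass and direct reversal, had 90 with a probe. The mean was higher in LOI(+) mice for 67 (74.4%, against 51.2% of all genes tested) and lower for 23, with a median difference of 0.077 on the log2 scale. The median was 0.043 without LOI(-) 2 and 0.042 without LOI(+) 2, but 0.13 without LOI(-) 3 and 0.14 without LOI(+) 1. Of the 90, 16 (17.8%) had an unadjusted p below 0.05, a share of 6.16% among all genes tested. Of these, 15 were higher and 1 was lower, where 3.92% and 2.23% of all genes tested were, and none passed adjustment. Without LOI(-) 2 the unadjusted count was 9 in both directions together, and without LOI(+) 2 it was 10. By pathway, the means of 12 of 16 recombination genes, 9 of 14 checkpoint genes, 5 of 5 mismatch genes and 7 of 7 Fanconi genes were higher in LOI(+) mice. In the main fit the mean was also higher for 12 of 16 base excision, 14 of 18 nucleotide excision, 2 of 4 end-joining and 6 of 10 bypass and reversal genes.

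The genes of smallest p in a pathway, at most 2 of each, show part of what lay behind those counts. In recombination, Recql, a RecQ helicase, had log2 ratios of -1.01, -1.27 and -0.91 in LOI(-) and -0.60, -0.49 and -0.60 in LOI(+) mice, without overlap. Its difference was 0.50 ± 0.098 with a limma p of 0.00144 (adjusted p = 0.801), and that of Top3a, the topoisomerase partner of Blm, was 0.19 ± 0.055. The Cy3 signal of Top3a was only 461 to 480, near the negative controls, which limits what its small SE can show. In the checkpoint, Tipin, which steadies stalled forks, had ratios of -1.72, -1.61 and -1.49 and -1.21, -0.72 and -1.13, also without overlap. Its difference was 0.58 ± 0.13 with a limma p of 0.0033 (adjusted p = 0.801), while Cdc25a, the phosphatase that drives cells past the checkpoint, differed by -0.20 ± 0.087. In mismatch repair, Pms1, a relative of Pms2, differed by 0.15 ± 0.083, at a Cy3 signal of 465 to 484 that was also near the negative controls. Prkdc, the kinase that Ku recruits to broken ends, differed by 0.34 ± 0.14, and Poll, a polymerase of end joining, by -0.031 ± 0.061.

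In base excision, Ung, which removes uracil, differed by 0.39 ± 0.097. For Lig1, the replicative ligase, the difference was 0.44 ± 0.13, with 0.27 and -0.0049 on its other probes, so its 3 probes differed in sign. Of the Fanconi genes, Usp1, which takes the ubiquitin tag off again, differed by 0.42 ± 0.14 and Fancl, the ligase that puts it on, by 0.32 ± 0.12. In nucleotide excision, Ddb2, which finds ultraviolet damage, differed by 0.26 ± 0.084, at a low Cy3 signal of 498 to 569. Every adjusted p of these genes in limma was at least 0.801.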

How the data were processed

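Crypt RNA of 6 mice was read on 2-colour arrays, 1 array a mouse, with 3 mice in each group per the labels. Spot intensity values were deposited for both channels as Agilent Feature Extraction wrote them, and per the file headers mean signals and local background medians are not normalized. A deposited table of log10 values served as an alternative. It followed the processed log ratio plus the mean reference signal, with r of 0.998 or more over 41174 features on each array and a median of 2.90 in each column, so no level was taken from it.

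Probes were named by accession through a RefSeq gene table of GRCm38.p6, which named 15381 of 41006 (37.5%) and left 25625 unnamed here. Mean signals were corrected with normexp (offset 50) and normalized by loess within arrays in limma 3.58.1 (R 4.3.3), with outlier spots left out and saturated ones kept. Groups were compared with lmFit and eBayes, two-sided, with Benjamini-Hochberg adjustment at 0.05 over 37948 genes and unnamed probes, and an unadjusted p under 0.05 is given as a description. The array number limits the precision.

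Every member with a probe is named, and of the other repair genes the 2 of smallest p in each pathway. Some genes that this rule would name are left out of the text. The members and lists were chosen with earlier results of these data known. The fit was tested on simulated data for the comparison of LOI(+) with LOI(-) over 37657 genes. It recovered 52% of genes changed by 0.5 on the log2 scale, 92% of those changed by 1 and 100% of those changed by 2 and by 3, with 7 false calls. The simulated noise was independent for each gene and array. Variation that genes share on an array was left out, so these shares may not hold for the arrays themselves. Alternatives changed the background correction, the normalization, the input values, the filters, the choice of probes and the model, added a replicate block, and left out each array. The authors' own test is not stated in the sources here. Image extraction read the LOI(-) arrays first, so its order and the group cannot be told apart.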

Additional observations from a re-analysis of the deposited data

How the results depend on the processing

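No gene among all those tested passed adjustment in the main fit or any of the 19 alternatives, with a smallest adjusted p between 0.125 (without LOI(+) 1) and 1.00 (without LOI(+) 2). Of the repair and checkpoint genes, 17 to 21 were higher in LOI(+) mice with each array left out in turn, with a median difference from 0.045 to 0.14, and 6 to 8 had an unadjusted p under 0.05. Mre11a, Xrcc1 and Xrcc5 had one in 19 of 19 alternatives, Brca2 and Xrcc2 in 17, and Ercc1 and Wrn in 12. The alternatives are not independent, since all use the same arrays. Leaving out dim or saturated probes, or the moderation of the variances, repeated the members' main differences. The deposited values nearly repeated the processed signals. These counts therefore overstate how often the differences were put to a new check. Over all genes that count was 2336, and 1496 to 3349 with an array left out, the lowest without LOI(+) 2. For the other repair genes it was 16, 10 without moderation of the variances, and 9 to 22 with an array left out, the lowest without LOI(-) 2. The median level against the reference was -0.31, but -0.18 with the background left in, -0.55 with median centring, and -0.31 to -0.27 with an array left out. Uncalled differences that changed sign were Brca1 at 0.082 (mean of its probes), Atm at -0.017 (Cy3 channel only), Rad50 at -0.024 (median centring) and Fancc at 0.0016 (array weights). With an array left out, they ran from -0.052 to 0.14 for Rad54l, -0.055 to 0.21 for Xpa, -0.12 to 0.040 for Fancc, -0.037 to 0.096 for Blm, -0.025 to 0.28 for Nbn and -0.0039 to 0.14 for Atm. The cause of these shifts was not tested.

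The main fit did not pair the mice by replicate number. Deviations from the group mean of same-numbered arrays correlated at -0.088, -0.25 and 0.35, and those of unlike-numbered arrays at -0.39 to 0.45. With 3 arrays in a group, these values cannot show whether same-numbered mice were paired. With the replicate number as a block, 0 genes passed adjustment and the members' median difference stayed at 0.088 with 20 higher, while their 7 unadjusted calls split into 6 higher and 1 lower against 4 and 3. Over all genes 2461 were called at an unadjusted p under 0.05, and of the other repair genes 18. Signal over background limits 12 members, whose lowest Cy3 signal was under 1.25 times the 95th percentile of the negative controls. Brca2, Wrn, Xrcc2, Fanca and Fancc are among them.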

Other observations

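Among the other repair genes, those of lesion bypass and of direct reversal of base damage belong to no pathway of the 37 listed genes. Of 13 listed, 10 had a probe, and 6 had a higher mean in LOI(+) mice, with a median difference of 0.013 on the log2 scale. The direction turned on single arrays, since 4 of the 10 were higher without LOI(-) 2, LOI(+) 2 or LOI(+) 3, with medians of -0.022, -0.0082 and -0.032. With scale normalization 5 were higher and the median was -0.00052. Rev1, the scaffold of the bypass polymerases, had log2 ratios of -1.04, -1.15 and -0.88 in LOI(-) mice and -0.83, -0.72 and -0.68 in LOI(+) mice. Its groups did not overlap, and the difference was 0.28 ± 0.085 with a limma p of 0.0141 (adjusted p = 0.801). Poli, a bypass polymerase, differed by 0.063 ± 0.058. Mgmt, which strips alkyl groups from guanine, stood at 0.057 ± 0.058 (SD, n = 3) in LOI(-) and 0.059 ± 0.046 (SD, n = 3) in LOI(+) mice. Ube2a, a ubiquitin-conjugating enzyme of bypass, had the widest spread of the group, from -0.67 on LOI(+) 1 to 0.067 on LOI(+) 2. Mgmt and Ube2a were named after their values were seen.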
